A study of Homo sapiens with 19 samples.

Results

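The 45 genes described here are the human WNT ligands, their frizzled receptors and the secreted proteins that modulate them, with AXIN2 and LEF1 as readouts of the pathway. They were selected by gene name and not by a cutoff on measured values, although with earlier results of these data known. They make up 45 of the 33382 genes quantified. The list holds 19 ligands, 10 frizzleds, 5 genes of the secreted frizzled-related family (SFRP1, SFRP2, FRZB, SFRP4 and SFRP5), WIF1, 4 dickkopfs and 4 R-spondins. Whole-transcriptome RNA-seq was available for 19 samples of H1 cells, an established line of human embryonic stem cells (hESCs). The question addressed was how expression of these genes differs once polycomb repressive complex 2 (PRC2), the enzyme that places the histone mark H3K27me3, is disrupted. There were 2 samples each of WT H1 cells, of the single knockouts SUZ12-/- H1, EED-/- H1, EZH2-/- H1 and EZH1-/- H1, and of the double knockout EZH2-/-/EZH1-/- H1. The study states that H3K27me3 was lost in the EED-/-, SUZ12-/- and EZH2-/-/EZH1-/- lines, which are called PRC2-null below, and kept at a lower level in the EZH1-/- and EZH2-/- lines, which are grouped with WT H1 as the retaining lines. A further line, H1-EED-/-/EED-OE, lacks the endogenous EED gene and carries an EED transgene that doxycycline (DOX) switches on. It gave 1 sample with DOX and 1 sample on each of days 8, 12, 16, 20, 24 and 28 after DOX was withdrawn, so these values have no replicate. All groups are one genetic background, and the names of the 2 samples of a knockout line differ in clone or passage, so p-values measure the spread between such samples and not between independent derivations of a genotype.

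WNT ligands are lipid-modified secreted proteins that bind frizzled receptors on the cell surface. With an LRP5 or LRP6 co-receptor they stabilise β-catenin, which enters the nucleus and activates target genes through TCF/LEF factors, and without it some ligands act on cell polarity and movement instead. Secreted frizzled-related proteins and WIF1 bind the ligands, dickkopfs block the co-receptor, and R-spondins bind LGR receptors and raise the number of frizzleds on the membrane. In the embryo the pathway is known for its part in forming the primitive streak, mesoderm and endoderm.

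Many promoters of developmental regulators are rich in CpG, the type of sequence on which PRC2 is known to accumulate in pluripotent cells, and the promoters of these genes were therefore examined. RefSeq promoter windows (GRCh38.p14) were found for 31 of the 45 genes, and the 250 bases before the start site were read. A CpG-rich window, defined as an observed to expected CpG ratio of at least 0.6 with at least 50% GC, was found for 24 of these 31 genes (77.4%), against 45% of all 35116 promoters of the same length. The median ratio was 0.751 over the promoters of the set and 0.558 over all promoters. The highest and the lowest ratio of the set are shown by 2 ligands, with each CG in capitals. No relation of the ratio to expression was tested. WNT2 lies at chr7:117323059-117323308 (minus strand) with 38 CG and a ratio of 1.16, and WNT8A lies at chr5:138083783-138084032 (plus strand) with 4 CG and a ratio of 0.226.
WNT2: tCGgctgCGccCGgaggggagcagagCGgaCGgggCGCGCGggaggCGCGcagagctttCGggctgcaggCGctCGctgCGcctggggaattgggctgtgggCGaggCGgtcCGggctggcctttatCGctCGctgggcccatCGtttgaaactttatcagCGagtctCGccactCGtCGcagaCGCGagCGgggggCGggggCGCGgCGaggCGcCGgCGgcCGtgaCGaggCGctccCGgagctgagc
WNT8A: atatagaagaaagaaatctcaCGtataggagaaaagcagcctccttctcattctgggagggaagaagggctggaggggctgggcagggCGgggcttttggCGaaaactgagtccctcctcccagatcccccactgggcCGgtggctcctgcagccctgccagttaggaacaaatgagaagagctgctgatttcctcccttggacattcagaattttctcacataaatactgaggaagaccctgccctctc
The bases CTTTGA, a form of the core to which TCF/LEF factors bind, were searched on both strands. Other forms, such as CTTTGT, were not searched. DKK1 was the only gene of the 31 with a match to CTTTGA, and it had 2, starting 149 and 95 bases before the start site. The motif was present in 11.2% of all promoters, and a match is not evidence of binding. The DKK1 window, at chr10:52314031-52314280 (plus strand), is shown with these 2 matches in capitals, and a CTTTGT that it holds is left unmarked. It was chosen since DKK1 had the largest average log2 fold change of the genes tested, on the scale given below.
DKK1: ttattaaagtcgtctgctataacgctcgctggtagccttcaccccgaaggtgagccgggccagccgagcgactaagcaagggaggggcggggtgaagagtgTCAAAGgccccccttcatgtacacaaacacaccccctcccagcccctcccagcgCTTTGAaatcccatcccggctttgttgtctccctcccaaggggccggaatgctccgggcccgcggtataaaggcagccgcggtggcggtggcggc

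Depth could not be read from the deposited TPM values, a length-corrected measure of transcript abundance whose sum is the same in every sample, and between 14389 and 17043 genes per sample reached a TPM of 1. The 2 SUZ12-/- samples were closer to each other than those of any other line. Their median absolute log2 difference was 0.0631 over genes with a mean TPM of at least 50, against 0.103 to 0.431 in the other 5 lines, although no pair of files was identical. Whether this is below sampling noise could not be tested without depth, so its samples were also averaged into 1, an alternative added after the data were seen, and calls lost in that way are named. The gene-level TPM of EED, SUZ12, EZH1 and EZH2 does not check the knockout labels, since only part of each gene was deleted. EED was at 109 TPM in the sample with DOX and at 12.6 to 31.6 TPM on the 6 days without it. In the DOX series the 4 dickkopf symbols had been turned into currency-like text, so 41 of the 45 symbols were found as such in all 19 files, and all 45 genes were found by Ensembl identifier.

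The summed expression of WNT ligands, of dickkopfs and of R-spondins was higher in every PRC2-null sample than in any retaining sample, although not each gene of these families was called. SFRP2, the most highly expressed gene of the set in the retaining lines, fell. The summed TPM of the 19 ligands was between 5.06 and 10.9 in the 6 retaining samples and between 188 and 400 in the 6 PRC2-null samples. The summed TPM of the 4 dickkopfs was 18.6 to 32.8 against 183 to 713, and that of the 4 R-spondins 4.37 to 8.50 against 30.5 to 219. These ranges did not overlap. For the 10 frizzleds (147 to 226 against 173 to 311 TPM) and for the SFRP family with WIF1 (345 to 832 against 144 to 520 TPM) they did. In retaining samples 0 to 3 of the 19 ligands reached a TPM of 1, and in PRC2-null samples 13 or 14 did. In bulk samples, a change in the share of cells that express a gene and a change in the RNA per cell cannot be told apart.

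**Figure D1:**
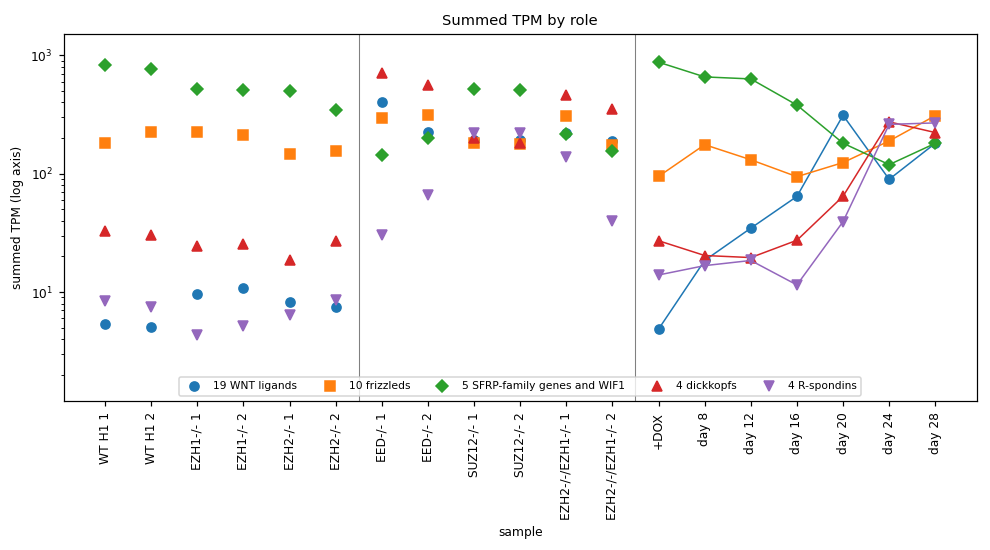
Summed TPM (log axis) of the genes of each role in the 12 samples of the 6 lines (points) and in the 7 samples of the DOX series (points joined in order of day, 1 sample each). The 19 ligands sum to at most 10.9 TPM in the retaining lines and to at least 188 TPM in the PRC2-null lines.

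Differential expression was tested with limma on log2(TPM + 1) in 1 fit of the 12 samples of the 6 lines. A gene was kept where 2 or more of these samples reached a TPM of 1, 19100 in all, among them 41 of the 45 described here. A gene was called where p after Benjamini-Hochberg adjustment was 0.01 or less and the fold change on that scale 3 or more, a scale on which the added 1 makes fold changes of low genes smaller. In EED-/- H1 cells 23 of the 41 genes were called up (16.2% of all genes tested were) and 2 down (6.09% of all genes). In SUZ12-/- H1 cells 20 were called up (14.5%) and 3 down (5.21%), and in EZH2-/-/EZH1-/- H1 cells 22 up (11.6%) and 2 down (5.66%). The share of the set that rose was thus above the background in every PRC2-null line, whereas the share that fell was close to it. These shares are not on an equal footing, since many genes of the set passed the filter only through PRC2-null samples. Among them were WNT2, WNT6, WNT10A, WNT11, FZD10, DKK1, DKK2, DKK4, RSPO2 and RSPO3. With WT H1 below 1 TPM, such genes could be called up but not down. Their share among all genes tested was not computed. With the SUZ12-/- samples averaged, 18 were up and 2 down in that line, the calls of WNT2B, FZD6 and SFRP1 being lost. The median log2 fold change of the 41 genes was 2.2, 1.46 and 1.76 in these lines, beside 0.36, 0.22 and 0.19 over all genes tested. Scaling the samples by median ratios lowered the all-gene medians by 0.30, 0.14 and 0.11 and left 23, 19 and 22 genes of the set up and 2, 3 and 2 down. Among all genes called in EED-/- H1 cells, 72.7% were rises before and 58% after that scaling.

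The lines with a single EZH gene deleted differed little from WT H1. In EZH1-/- H1 cells 0 of the 41 genes were called up (0.0576% of all genes) and 1 was called down (0.0419%), and in EZH2-/- H1 cells 0 were called in either direction (0% and 0%). By the same limma fit, 2 genes in each of these lines had an unadjusted p under 0.05 with a higher level and 3 with a lower one. The gene called down in EZH1-/- H1 cells was FZD2, a frizzled receptor, at 6.91 and 7.08 TPM against 28.8 and 34.4 TPM in WT H1 (log2 fold change -2.02 ± 0.25, limma adjusted p = 0.00821). That call was lost without either sample of WT H1, EZH1-/-, EED-/- or SUZ12-/- H1 (adjusted p of 0.0235 to 0.143) and under 6 of the alternative settings (0.0129 to 0.0261). Members of the set were called up in all 3 PRC2-null lines in 16 cases (7.82% of all genes were), in 2 lines in 7 (4.81%), in 1 line in 3 (9.27%) and in none in 15 (78.1%). In 28 of the 41 genes every PRC2-null sample was above every retaining sample (24.2% of all genes), and for SFRP2 alone every PRC2-null sample was below (13.3% of all genes). Genes near 0 TPM in retaining samples had little room to be lower.

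**Figure D2:**
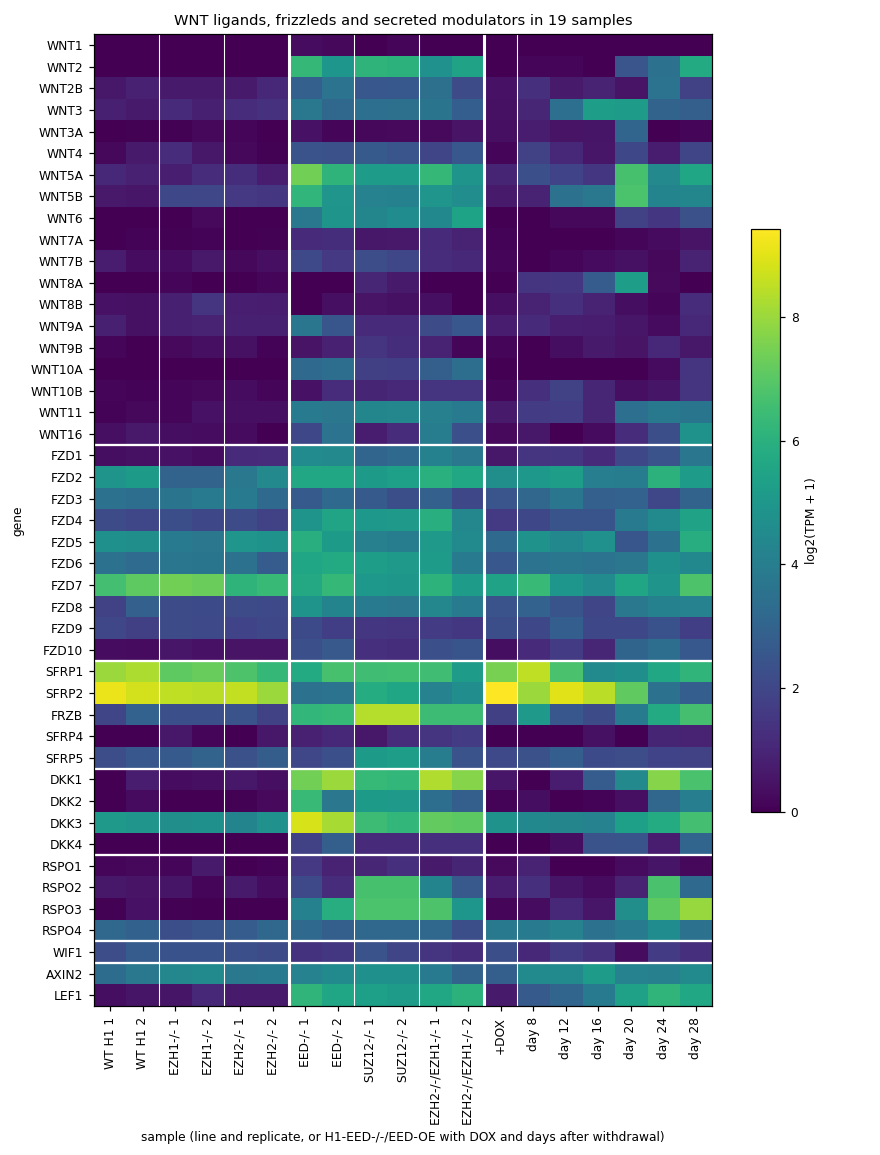
Expression as log2(TPM + 1) (colour) of the 45 genes (rows, grouped by role) in the 19 samples (columns). WNT2, DKK1, RSPO3 and LEF1 are dark in the 6 retaining samples and bright in the 6 PRC2-null samples, and SFRP2 shows the reverse.

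**Figure D3:**
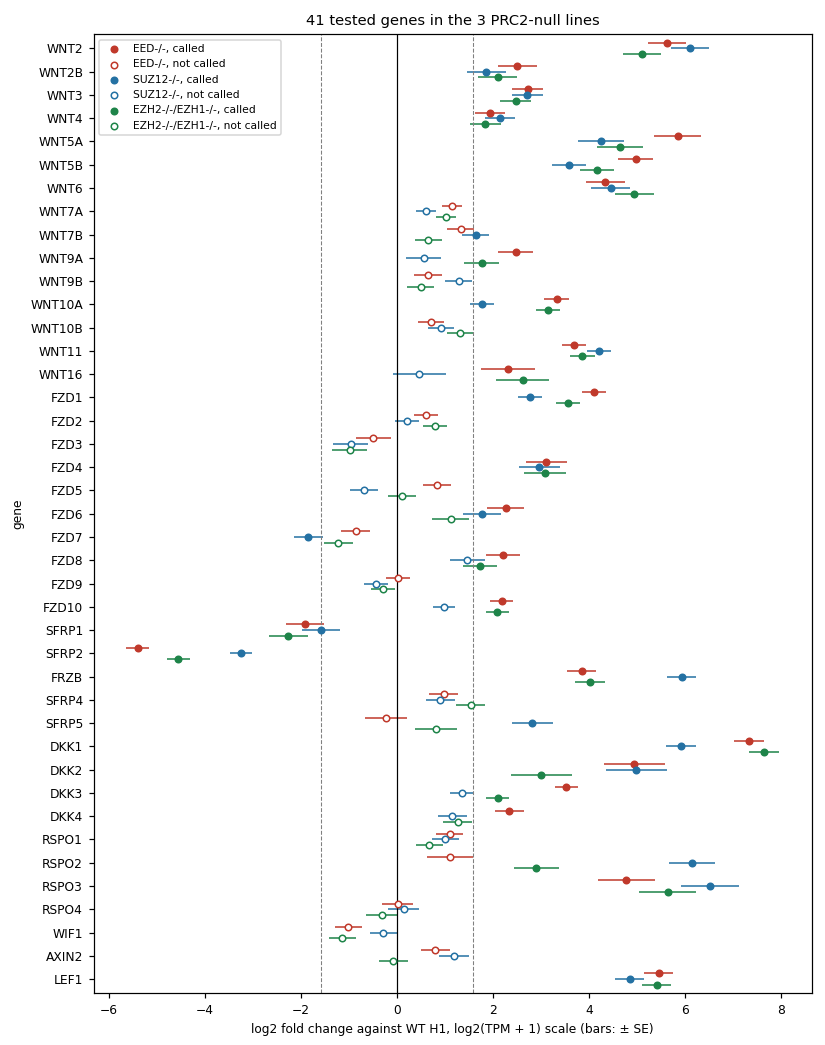
Log2 fold change against WT H1 (bars, ± SE from the limma fit, 2 samples per line) of the 41 tested genes in the 3 PRC2-null lines, with filled points for called genes and dashed lines at a fold of 3. The positions of genes listed at 0 TPM in WT H1 (WNT2, WNT6, WNT10A, SFRP4, DKK4) depend on the added 1. DKK1 lies farthest to the right and SFRP2 farthest to the left.

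Markers of other cell types moved with the set. The summed TPM of 4 hESC markers (POU5F1, NANOG, SOX2, LIN28A) was 3477 to 4455 in retaining and 77.5 to 363 in PRC2-null samples, and 4 of 4 were called down against WT H1 in the average of the PRC2-null lines. Smooth muscle or fibroblast markers (246 to 664 against 6327 to 12979 TPM, 4 of 5 called up), endoderm markers (4.72 to 14.8 against 338 to 13821 TPM, 5 of 5) and trophoblast or amnion markers (12.1 to 14.8 against 78.7 to 407 TPM, 4 of 4) were higher. The sums of mesoderm markers (33.1 to 134 against 47.6 to 298 TPM, 3 of 5 called up) and of neural markers (94.5 to 196 against 67.1 to 385 TPM, 1 of 3 tested) overlapped. Of the mesoderm markers only KDR itself overlapped (31.6 to 133 against 14.7 to 135 TPM). T, MIXL1, HAND1 and PECAM1 were higher in every PRC2-null sample, MIXL1 narrowly (at most 1.53 against at least 1.6 TPM). In retaining samples HAND1 was listed at 0 throughout and SOX17, GATA6 and FOXA2 were at or below 0.29 TPM, and in PRC2-null samples the neural marker SOX1 was at or below 0.23 TPM. PAX6, another neural marker, was at 0.24, 0.47 and 0.70 TPM in retaining and 5.66, 23.2 and 129 TPM in PRC2-null samples, without overlap. The part of these cell types in the changes of WNT genes was not tested.

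Of the 19 ligands, 9 rose in all 3 PRC2-null lines, and WNT5A, WNT2, WNT5B, WNT6 and WNT11 reached the highest levels. In the average of the 3 lines against WT H1, 11 of the 15 tested ligands were called up and 0 down, where 23 of the 41 genes of the whole set were up (13.6% of all genes) and 2 down (5.36%). WNT5A, a ligand best known for signalling without β-catenin, was at 0.70, 0.93 and 1.36 TPM (lowest, median and highest) in the 6 retaining samples. It was at 171 and 69.5 TPM in EED-/-, 34.9 and 36.3 in SUZ12-/- and 76.5 and 28.7 in EZH2-/-/EZH1-/- H1 cells. It was the leading ligand in 3 of these 6 samples. Its average log2 fold change was 4.91 ± 0.39 (limma adjusted p = 2.7e-06). WNT5B, the close relative of WNT5A, was at 0.47, 1.88 and 3.14 TPM in retaining samples and at 72.8 and 29.1, 17.2 and 16.8 and 29.0 and 23.3 TPM in the same order of lines (4.23 ± 0.30, adjusted p = 1.12e-06). For both genes the 2 groups of 6 samples were far apart, and EED-/- replicate 1 had the highest value.

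WNT2, which acts through β-catenin and is known for its part in lung and vessel development, was listed at 0 TPM in each of the 6 retaining samples. It was at 76.9 and 30.0 TPM in EED-/-, 68.6 and 65.5 in SUZ12-/- and 26.1 and 42.0 in EZH2-/-/EZH1-/- H1 cells (limma adjusted p = 2.98e-07 for the average), and no fold change is given against a group at 0. WNT6 and WNT10A are neighbours on chromosome 2, at chr2:218859805-218874233 and chr2:218880852-218899581 (GRCh38, GENCODE release 44, both on the plus strand), and both rose in all 3 lines. WNT6 was listed at 0 in 5 of the 6 retaining samples and at 0.17 TPM in the sixth, and at 12.8, 21.5 and 43.1 TPM (lowest, median and highest) in the PRC2-null samples. WNT10A was listed at 0 in each retaining sample and at 2.38, 7.30 and 9.68 TPM in the PRC2-null samples, with the lowest values in SUZ12-/- H1 cells. Being neighbours did not always go with a shared change. WNT3 and WNT9B are adjacent on chromosome 17, at chr17:46762506-46833154 (minus strand) and chr17:46833201-46886730 (plus strand), and WNT3 rose in each PRC2-null line while WNT9B was called in none.

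WNT3, a ligand needed for the primitive streak in the mouse, was at 0.59, 0.99 and 1.54 TPM in retaining samples and at 6.11, 9.97 and 12.6 TPM in PRC2-null samples (average log2 fold change 2.63 ± 0.26, limma adjusted p = 1.33e-05). WNT11, a ligand of cell movement and polarity, was at 0.06, 0.23 and 0.37 and 12.4, 15.3 and 19.7 TPM (3.91 ± 0.21, adjusted p = 1.84e-07). Its 6 PRC2-null values lay within 12.4 to 19.7 TPM, the narrowest spread in proportion among the leading ligands. WNT4 was at 0.04, 0.34 and 1.30 and 2.94, 4.49 and 5.34 TPM (1.97 ± 0.26, adjusted p = 9.07e-05), and WNT2B at 0.53, 0.61 and 1.05 and 3.45, 5.77 and 10.9 TPM (2.15 ± 0.33, adjusted p = 0.000288). Neither gene's groups overlapped. In the EZH2-/-/EZH1-/- line, the WNT4 call was lost without WT H1 replicate 1 or EZH2-/-/EZH1-/- replicate 2, and the WNT2B call without either WT H1 sample or EZH2-/-/EZH1-/- replicate 1 (adjusted p of 0.00517 to 0.0209 with log2 fold changes of 1.42 to 2.21). In the SUZ12-/- line the WNT2B call was lost without any 1 sample of WT H1 or SUZ12-/- H1 (adjusted p of 0.0178 to 0.0309) and with the SUZ12-/- samples averaged (0.0239).

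A few ligands were called in only some of the lines. WNT9A was at 0.34, 0.78 and 0.91 TPM in retaining samples, 11.8 and 4.67 TPM in EED-/-, 1.26 and 1.25 in SUZ12-/- and 3.59 and 4.93 in EZH2-/-/EZH1-/- H1 cells. It was called up in the first and last of these. WNT16, a ligand of bone and blood formation, was at 0, 0.26 and 0.56 TPM in retaining samples and at 3.07 and 11.2, 0.70 and 1.28 and 14.6 and 3.87 TPM, called in the same 2 lines. The values of WNT16 differed more than 3-fold between the samples of each of these 2 lines. Its call in EED-/- H1 cells was lost without any 1 of 7 samples (both of WT H1, EZH1-/- and EZH2-/- H1, and EED-/- replicate 2, adjusted p of 0.0105 to 0.0568) or without the filter on low genes (0.0122), and in EZH2-/-/EZH1-/- H1 cells without either WT H1 sample or replicate 1 of the line (0.019 to 0.0293). The WNT9A call in EZH2-/-/EZH1-/- H1 cells was lost without either WT H1 sample or replicate 2 of the line (log2 fold changes of 1.56 to 1.96, adjusted p of 0.0116 to 0.0306). WNT7B, at 0.14, 0.27 and 0.63 TPM in retaining samples and 3.73 and 3.06 TPM in SUZ12-/- H1 cells, was called up only there (1.63 ± 0.28, limma adjusted p = 0.000743), and the call was lost without WT H1 replicate 2 or SUZ12-/- replicate 1 (adjusted p of 0.0115 and 0.0124) and with median ratio scaling (log2 fold change 1.54). Averaged over the PRC2-null lines, the WNT16 call was lost without any 1 sample except EED-/- replicate 1 and EZH2-/-/EZH1-/- replicate 2 (log2 fold changes of 1.51 to 1.92, adjusted p of 0.00543 to 0.0653), and the WNT9A call without WT H1 replicate 2, EED-/- replicate 1 or EZH2-/-/EZH1-/- replicate 2 (log2 fold changes of 1.39 to 1.53) and with median ratio scaling (1.44). The WNT16 call was also lost without the filter on low genes (0.0138) and with the SUZ12-/- samples averaged (0.0119). The differences of WNT16 and WNT7B between PRC2-null lines did not pass the threshold.

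Low ligands filled the rest of the family. WNT7A, WNT9B and WNT10B were tested and called in no line, with PRC2-null medians of 1.08, 0.86 and 1.2 TPM. WNT1, WNT3A, WNT8A and WNT8B were too low to be tested. WNT1 and WNT3A were at or below 0.24 and 0.42 TPM in all 12 samples of the 6 lines. WNT8A was listed at 0 in the EED-/- and EZH2-/-/EZH1-/- samples and at 1.04 and 0.60 TPM in SUZ12-/- H1 cells. WNT8B, at 0.33, 0.68 and 1.74 TPM in retaining samples and 0, 0.32 and 0.42 TPM in PRC2-null samples, was the only ligand with a lower median in the latter.

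The frizzleds did not start from silence, since 8 or 9 of the 10 reached a TPM of 1 in retaining samples, and all 10 did in PRC2-null samples. The data show a more even mixture in place of one leading receptor. FZD7, the main frizzled of hESCs, held 47.5 to 75.1% of the summed frizzled TPM in retaining samples, while the leading frizzled held 20.4 to 27.5% in PRC2-null samples. FZD7 was at 69.6, 117 and 168 TPM in retaining samples and at 50.7 and 77.4 TPM in EED-/-, 31.6 and 30.6 in SUZ12-/- and 66.4 and 35.2 in EZH2-/-/EZH1-/- H1 cells. It was called down in SUZ12-/- H1 cells (-1.85 ± 0.30, limma adjusted p = 0.00052), and the fall in the average of the 3 lines (-1.32 ± 0.25, adjusted p = 0.00102) was below a fold of 3. The 2 groups overlapped, since EED-/- replicate 2 lay above the lowest retaining sample.

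FZD1 and FZD4 rose in each PRC2-null line. FZD1 was at 0.24, 0.35 and 1.28 TPM in retaining samples and 7.49, 14.5 and 22.2 TPM in PRC2-null samples (3.47 ± 0.20, limma adjusted p = 3.32e-07). FZD4, the receptor also bound by norrin in retinal vessels, was at 2.56, 3.29 and 3.76 and 19.7, 32.1 and 61.2 TPM (3.05 ± 0.35, adjusted p = 3.64e-05). For both receptors the lowest PRC2-null value was above the highest retaining one. FZD10 was at 0.21, 0.40 and 0.49 TPM in retaining samples and 3.94 and 5.13, 1.40 and 1.38 and 3.87 and 4.49 TPM in EED-/-, SUZ12-/- and EZH2-/-/EZH1-/- H1 cells, and FZD8 at 2.59, 3.40 and 6.43 TPM and 28.4 and 18.2, 14.0 and 12.4 and 19.5 and 13.2 TPM. Both were called up in the EED-/- and EZH2-/-/EZH1-/- lines, and FZD8 no longer in the latter without WT H1 replicate 1 or replicate 1 of the line (log2 fold changes of 1.2 and 1.46, adjusted p of 0.0163 and 0.0377). FZD6 was at 5.61, 10.4 and 11.8 TPM and 46.4 and 52.7, 36.9 and 33.1 and 34.8 and 13.6 TPM, called up in EED-/- and SUZ12-/- H1 cells, the latter call being lost without any 1 sample of WT H1 or SUZ12-/- H1 (adjusted p of 0.017 to 0.0301) and with the SUZ12-/- samples averaged (0.023). The values of FZD10, FZD8 and FZD6 in PRC2-null samples were all above those in retaining samples. In the average, the FZD6 call was lost without WT H1 replicate 2 or EZH2-/-/EZH1-/- replicate 1 (log2 fold changes of 1.5 and 1.59) and the FZD8 call without WT H1 replicate 1 (1.27). Median ratio scaling also ended both calls (1.48 for FZD6 and 1.58 for FZD8). FZD2, FZD3, FZD5 and FZD9 were called in no PRC2-null line.

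The secreted frizzled-related family changed in both directions. SFRP2 and SFRP1, the 2 leading genes of the family in every retaining sample, were called down in each PRC2-null line, and FRZB was called up in each. SFRP2 was at 563 and 434 TPM in WT H1 and at 256, 371 and 563 TPM over the 6 retaining samples. It was at 10.4 and 11.0 TPM in EED-/-, 55.8 and 46.3 in SUZ12-/- and 17.2 and 23.4 in EZH2-/-/EZH1-/- H1 cells (-4.41 ± 0.19, limma adjusted p = 6.27e-08), far below the lowest retaining sample. SFRP1 was at 259 and 308 TPM in WT H1, 135 and 151 in EZH1-/- and 109.6 and 77.0 in EZH2-/- H1 cells, and at 53.0 and 102, 92.5 and 94.0 and 92.3 and 36.2 TPM in the PRC2-null lines (-1.93 ± 0.33, adjusted p = 0.000524). In this gene the groups overlapped, because EZH2-/- replicate 2 was lower than 4 of the PRC2-null samples. The fall of SFRP1 was not called in the contrast of the 3 PRC2-null with the 3 retaining lines, in which SFRP2 was the 1 gene called down (5.09% of all genes were) and 22 genes were called up (13.5%). It also depended on WT H1 replicate 2, without which it was called in none of the 3 lines (adjusted p of 0.0124 in EZH2-/-/EZH1-/- H1 cells and 0.0117 in the average). In EED-/- H1 cells it was also lost without WT H1 replicate 1 or EED-/- replicate 1, and in SUZ12-/- H1 cells without any 1 sample of the retaining or SUZ12-/- lines (adjusted p of 0.0108 to 0.0535), with the SUZ12-/- samples averaged (0.0384), without the filter on low genes (0.0158) or without limma's trend and robust options (0.012).

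FRZB, whose product also binds WNT ligands and was first known from cartilage, was at 2.54, 3.93 and 6.75 TPM in retaining samples. It was at 75.3 and 79.2 TPM in EED-/-, 333 and 328 in SUZ12-/- and 87.2 and 87.4 in EZH2-/-/EZH1-/- H1 cells (4.59 ± 0.25, limma adjusted p = 2.37e-07). The leading member of the family was thus SFRP2 in each retaining sample and FRZB or SFRP1 in each PRC2-null sample. SFRP5 was at 3.67, 5.16 and 6.94 TPM in retaining samples and was called up only in SUZ12-/- H1 cells, at 34.1 and 38.1 TPM (2.82 ± 0.43, adjusted p = 0.000367), with 3.03 and 3.97 TPM in EED-/- and 14.9 and 4.35 in EZH2-/-/EZH1-/- H1 cells. SFRP4, at or below 2.08 TPM in all 12 samples, and WIF1, at 3.55, 4.04 and 5.67 and 1.30, 1.80 and 4.32 TPM, were called in no line.

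All 4 dickkopfs were called up in EED-/- H1 cells, 3 in EZH2-/-/EZH1-/- H1 cells and 2 in SUZ12-/- H1 cells. DKK1, which blocks LRP5 and LRP6, was at 0, 0.31 and 0.67 TPM in retaining samples. It was at 168 and 254 TPM in EED-/-, 78.0 and 75.3 in SUZ12-/- and 310.3 and 211 in EZH2-/-/EZH1-/- H1 cells, the largest average change of the 41 genes (6.96 ± 0.26, limma adjusted p = 2.56e-08). DKK3, a divergent member not known to block the co-receptor as DKK1 does, was the 1 dickkopf that retaining cells expressed at over 1 TPM, at 18.1, 25.7 and 32.8 TPM. It was at 459 and 294, 87.9 and 73.8 and 141 and 131 TPM (2.32 ± 0.20, adjusted p = 4.26e-06), and its rise in SUZ12-/- H1 cells (1.35 ± 0.24) was below a fold of 3 although the groups did not overlap. DKK2, at 0, 0.02 and 0.22 TPM in retaining samples, was at 83.6 and 12.5, 34.5 and 33.1 and 9.71 and 6.30 TPM (4.30 ± 0.52, adjusted p = 4.75e-05) and its samples spread widely in EED-/- H1 cells. Its call in EZH2-/-/EZH1-/- H1 cells was lost without either WT H1 sample or replicate 1 of the line (adjusted p of 0.0175 to 0.0269). DKK4 was listed at 0 in each retaining sample and at 2.56 and 6.14, 1.26 and 1.15 and 1.39 and 1.41 TPM, called up in EED-/- H1 cells.

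Among the R-spondins the leading gene changed. RSPO4 held 86.0 to 96.2% of their summed TPM in retaining samples and did not differ by the test in any PRC2-null line, at 3.76, 6.14 and 8.18 and 3.77, 7.88 and 8.36 TPM. RSPO3, which is expressed in mesoderm and vessels, was at 0, 0.02 and 0.36 TPM in retaining samples and led in each PRC2-null sample. It was at 16.8 and 57.7 TPM in EED-/-, 108 and 108 in SUZ12-/- and 111 and 30.0 in EZH2-/-/EZH1-/- H1 cells (5.64 ± 0.49, limma adjusted p = 4.56e-06), with a more than 3-fold gap between samples of the EED-/- and EZH2-/-/EZH1-/- lines. RSPO2, the other R-spondin of developing limb and lung, was at 0.11, 0.42 and 0.59 TPM in retaining samples and at 3.28 and 1.29, 102 and 102 and 17.99 and 5.25 TPM. It was called up in the SUZ12-/- and EZH2-/-/EZH1-/- lines and not in EED-/- H1 cells (1.1 ± 0.47, adjusted p = 0.0744). RSPO1 was at or below 1.97 TPM in all 12 samples and was not called.

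The 2 readout genes did not move alike. LEF1, a TCF/LEF transcription factor that is itself a target of the pathway, was at 0.26, 0.52 and 1.11 TPM in retaining samples and at 70.7 and 46.7 TPM in EED-/-, 39.1 and 36.2 in SUZ12-/- and 47.7 and 66.0 in EZH2-/-/EZH1-/- H1 cells (5.23 ± 0.25, limma adjusted p = 1.1e-07). AXIN2, a negative regulator that is the most general target of β-catenin signalling, was at 8.94 and 12.7 TPM in WT H1, 8.94, 13.5 and 21.7 TPM over the retaining samples and 7.09, 19.4 and 25.6 TPM in PRC2-null samples. It was called in no line (0.63 ± 0.25 in the average, adjusted p = 0.0509), and the groups overlapped. In SUZ12-/- H1 cells it passed the p threshold but not the fold (1.18 ± 0.31, limma adjusted p = 0.00877), with both samples (25.6 and 25.4 TPM) above every retaining sample. Its lowest and highest PRC2-null values were in EZH2-/-/EZH1-/- replicate 2 and SUZ12-/- replicate 1.

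The other genes of the pathway were counted on a list of 70, all of which were tested. In the average of the 3 PRC2-null lines 22 were called up and 3 down, a share above the background of 13.6% for rises and close to the background of 5.36% for falls. For secretion of ligands, 2 of 3 genes were up. WLS, the carrier that brings ligands to the cell surface, was at 1.41, 1.82 and 2.58 TPM in retaining samples and 149, 232 and 342 TPM in PRC2-null samples (6.52 ± 0.17, limma adjusted p = 2.75e-09), and NOTUM, which removes the lipid of the ligands, at 0.06, 0.36 and 1.66 and 1.19, 3.58 and 9.62 TPM (2.07 ± 0.33). Of 14 receptor genes 3 were up and 1 down. LGR5, a receptor of R-spondins, was at 0, 0.06 and 0.56 and 5.10, 11.3 and 28.9 TPM (3.62 ± 0.38). RNF43, which removes frizzleds, was at 0.72, 1.17 and 1.82 and 3.54, 12.4 and 19.2 TPM (2.49 ± 0.43). ROR1, a WNT5A receptor, was down, at 20.6, 28.5 and 38.8 and 3.21, 14.2 and 15.5 TPM (-1.69 ± 0.40). ROR2, also a WNT5A receptor, was higher without overlap, at 1.57, 4.13 and 4.56 and 5.49, 16.6 and 24.6 TPM. Of 8 further genes of secreted or surface proteins 5 were up, led by CER1 (4.0 ± 0.36), a secreted inhibitor, and GPC3 (3.12 ± 0.32), a glypican that binds WNT ligands at the cell surface.

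The remaining lists hold cytoplasmic, nuclear and planar polarity genes and common targets. Of 16 cytoplasmic genes 1 was up, NKD1, a feedback inhibitor, at 1.08, 1.65 and 3.10 and 4.20, 8.95 and 31.9 TPM (2.10 ± 0.31). Of 11 nuclear genes 2 were up and 1 down, with TLE2 (2.02 ± 0.23) and PYGO1 (1.76 ± 0.21) higher and TCF7L1, the TCF factor that represses targets in hESCs, lower at 75.3, 82.5 and 125 and 26.8, 30.9 and 44.6 TPM (-1.89 ± 0.14, limma adjusted p = 1.77e-06). Of 9 planar polarity genes PRICKLE2 (2.25 ± 0.26) and DAAM2 (1.81 ± 0.38) were up and CELSR2 (-1.63 ± 0.28) was down. Of 16 commonly cited target genes 12 were up, led by TNFRSF19 (6.54 ± 0.21) and BMP4 (5.32 ± 0.40). This last list includes lineage factors such as CDX2 and T, and 7 of its genes stand in the lists above as well. Without WT H1 replicate 2 or EZH2-/-/EZH1-/- replicate 2, 1 gene of the 70 and not 3 was called down.

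The PRC2-null lines differed from each other in 7 of the 41 genes. Between EED-/- and SUZ12-/- H1 cells, WNT9A and DKK3 were higher in EED-/- H1 cells (2.58% of all genes were) and SFRP2, FRZB, SFRP5 and RSPO2 were lower (3.54%). Between SUZ12-/- and EZH2-/-/EZH1-/- H1 cells, FRZB and RSPO2 were higher in SUZ12-/- H1 cells (3.32%) and DKK1 was lower (1.14%). Between EED-/- and EZH2-/-/EZH1-/- H1 cells 0 genes were called by limma (0.0576% and 0.0314% of all genes), with 14 of 41 at an unadjusted p under 0.05. The widest gap was that of RSPO2, whose log2 difference between EED-/- and SUZ12-/- H1 cells was -5.04 ± 0.47 (adjusted p = 5.46e-05). SFRP5 differed by -3.05 ± 0.43 (adjusted p = 0.000789) and DKK3 by 2.17 ± 0.24 (adjusted p = 0.000175) in the same comparison.

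With a pseudocount of 0.1, WNT9A (adjusted p = 0.0115) no longer differed between EED-/- and SUZ12-/- H1 cells, and DKK1 (0.161) and RSPO2 (0.0126) no longer between SUZ12-/- and EZH2-/-/EZH1-/- H1 cells. Every one of these differences involves the close pair of SUZ12-/- samples. With that pair averaged into 1 sample, 3 genes differed between EED-/- and SUZ12-/- H1 cells in place of 6 and 0 between SUZ12-/- and EZH2-/-/EZH1-/- H1 cells in place of 3. SFRP2, DKK3 and RSPO2 were the genes that kept their call between EED-/- and SUZ12-/- H1 cells, and WNT9A (adjusted p = 0.0418), FRZB (0.0166) and SFRP5 (0.012) did not. The other lines mattered as well, since FRZB, SFRP5 and WNT9A also lost their call between EED-/- and SUZ12-/- H1 cells without EED-/- replicate 1, FRZB between SUZ12-/- and EZH2-/-/EZH1-/- H1 cells without EZH2-/-/EZH1-/- replicate 2, and DKK1 there without EZH2-/-/EZH1-/- replicate 1 or either EZH1-/- sample (adjusted p of 0.0103 to 0.0573 over these and the SUZ12-/- samples). The SUZ12-/- samples also stood apart in markers. Their summed endoderm markers were at 13333 and 13821 TPM, against 338 to 973 TPM in the other 4 PRC2-null samples. AFP alone made up 13208 and 13695 TPM of these sums. SOX17 (15.95 and 15.45 TPM), GATA4 (68.67 and 69.35 TPM) and FOXA2 (12.15 and 13.52 TPM) were instead lowest there among PRC2-null samples. GATA6 was within the range of the others. The trophoblast or amnion sums were lowest too (78.7 and 88.2 TPM). KRT7 made up most of them, whereas CGA was highest there (5.54 and 4.77 TPM). ACTA2 (326 and 334 TPM), TAGLN (667 and 675 TPM) and CNN1 (24.0 and 21.4 TPM) were also lowest there, CNN1 within its retaining range. COL1A1 and COL1A2 were within the range of the other PRC2-null samples. HAND1 was highest in SUZ12-/- H1 cells (139 and 147 TPM), and the neural sums were lowest (68.7 and 67.1 TPM). The part of these markers in the differences was not tested.

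**Figure D4:**
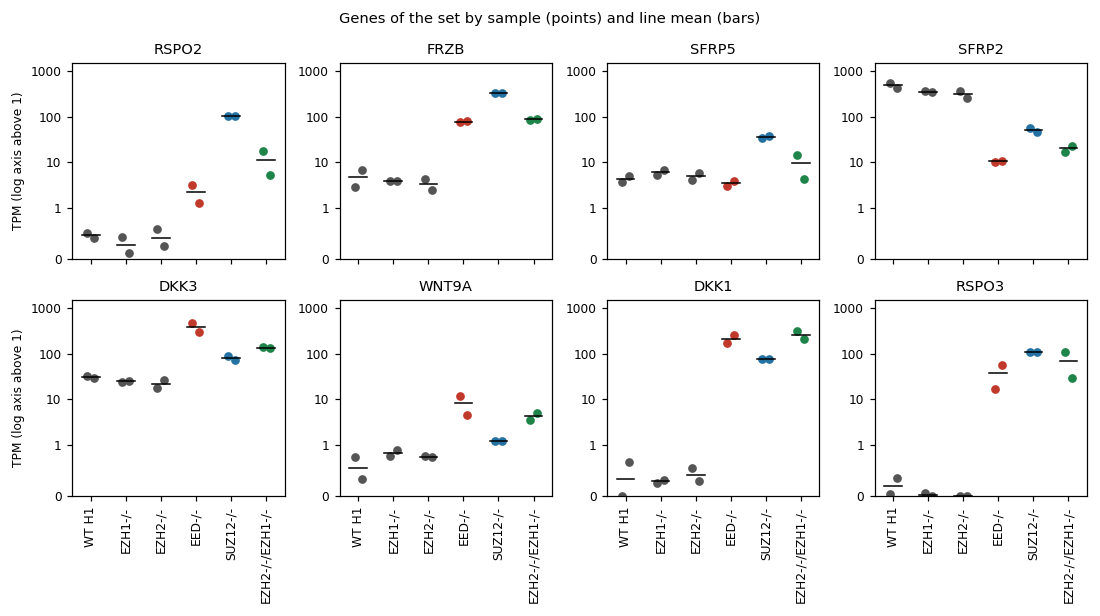
TPM (axis linear from 0 to 1 and logarithmic above) of 8 genes in the 2 samples (points) and as the mean (bars) of each of the 6 lines. RSPO2, FRZB and SFRP5 are highest in SUZ12-/- H1 cells, where DKK3, WNT9A and DKK1 are lowest of the PRC2-null lines.

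Withdrawal of DOX from H1-EED-/-/EED-OE cells gave the order in which the genes changed, with 1 sample per day and no test. LEF1 was past a fold of 3 from day 8 on, WNT3 and WNT5B from day 12, DKK1 from day 16, and WNT2, WNT5A, WNT11, FZD4, FZD10 and RSPO3 from day 20. The number of the 41 genes past a 3-fold rise over the sample with DOX was 5 on day 8 (2.57% of all genes), 5 on day 12 (2.78%) and 6 on day 16 (3.69%). It was 14 on day 20 (8.66%), 18 on day 24 (12.6%) and 23 on day 28 (17.6%). Falls past a fold of 3 numbered 0 on days 8 and 12 (0.555% and 0.351%), 1 on day 16 (0.848%), 3 on day 20 (2.64%), 2 on day 24 (4.57%) and 1 on day 28 (5.5%). The median log2 change of the 41 genes was 0.38 on day 8 and 1.80 on day 28, beside 0.14 and 0.38 over all genes kept. All days share the 1 DOX sample as reference. That sample was not always near WT H1, as given for AXIN2, FZD5 and FZD6 below.

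LEF1 was at 0.60 TPM with DOX and at 5.37, 7.31, 13.5, 41.1, 70.9 and 47.7 TPM on days 8, 12, 16, 20, 24 and 28. AXIN2 was at 6.29 TPM with DOX and then 21.9, 21.5, 34.8, 17.0, 16.0 and 21.8 TPM, past a fold of 3 on 4 days of which day 8 was the first. Both readout genes were thus above the DOX sample on every day. The AXIN2 value with DOX was the lowest of all 19 samples, however, and retaining samples were at 8.94 to 21.7 TPM. The summed hESC markers stayed between 3790 and 4430 TPM on days 8 to 16, beside 3719 TPM with DOX. POU5F1 made up most of these sums, and single markers moved. SOX2 was at 131 TPM with DOX and then 417, 165 and 94.4 TPM on days 8, 12 and 16. NANOG was at 54.1 TPM with DOX and then 43.3, 167 and 184 TPM. Summed mesoderm markers rose from 40.0 TPM with DOX to 65.5, 206 and 620 TPM on days 8, 12 and 16. On day 8 KDR made up most of that sum (64.3 TPM, against 38.5 with DOX), and MIXL1 was lower (0.16 against 1.34 TPM). Other marker sums moved as well. Neural markers were at 78.3 TPM with DOX and then 235, 133 and 135 TPM on these days, with OTX2 at 137 TPM on day 8 against 15.0 with DOX. Trophoblast or amnion markers were at 14.0 and then 47.1, 24.3 and 11.52 TPM, and endoderm markers at 3.90 and then 6.74, 25.6 and 85.4 TPM. FRZB rose early and a second time, at 2.42 TPM with DOX and then 32.9, 4.83, 3.61, 13.5, 53.1 and 98.3 TPM. WNT4, FZD5 and AXIN2 were the other genes past the fold on day 8 besides LEF1 and FRZB.

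The ligands peaked on different days. WNT3 was at 0.33 TPM with DOX and then 1.04, 10, 37.5, 34.9, 6.91 and 6.31 TPM, and its maximum fell on day 16. WNT5B was at 0.62 TPM with DOX and then 0.90, 10.3, 12.7, 106, 17.98 and 19.1 TPM, and WNT5A at 0.96 TPM with DOX and then 3.98, 2.68, 1.78, 101, 20.7 and 44.9 TPM, both with the maximum on day 20. WNT8A, a ligand of the early mesoderm, was at 0 TPM with DOX and then 1.66, 1.80, 5.64, 37.7, 0.19 and 0 TPM, and WNT3A, the other ligand of the late streak, exceeded 1 TPM only on day 20, at 7.36 TPM. Neither WNT8A nor WNT3A was tested, and both were low in the PRC2-null lines. The streak markers T and MIXL1 were also high on days 16 and 20 and lower on day 24. T was at 125, 186 and 0.74 TPM and MIXL1 at 303, 164 and 3.08 TPM on days 16, 20 and 24. MIXL1 was thus highest on day 16, before WNT8A and WNT3A. On day 28 T was at 13.1 and MIXL1 at 5.33 TPM.

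Other ligands appeared late and stayed. WNT2 was at 0 TPM with DOX and then 0.11, 0.08, 0, 4.64, 10.9 and 53.8 TPM. WNT11 was at 0.59 TPM with DOX and then 2.12, 2.30, 1.03, 9.93, 13.0 and 11.8 TPM, and WNT16 at 0.19 TPM with DOX and then 0.54, 0, 0.22, 1.28, 3.83 and 27.4 TPM. WNT4 had no steady course, at 0.12 TPM with DOX and then 2.56, 1.1, 0.47, 3.08, 0.64 and 2.91 TPM. WNT6 was at 0 TPM with DOX and then 0, 0.14, 0.16, 2.59, 1.82 and 4.11 TPM. It reached 4.11 TPM on day 28, below the lowest PRC2-null sample, and WNT10A, high in the 6 PRC2-null samples, reached only 1.76 TPM. WNT9A was past the fold on no day.

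Among the receptors, FZD5 was past the fold on day 8, FZD4 and FZD10 first on day 20, and FZD1, FZD6 and FZD8 first on day 24. FZD4 was at 2.01 TPM with DOX and then 3.07, 4.52, 4.40, 13.8, 20.9 and 42.2 TPM, and FZD1 at 0.51 TPM with DOX and then 1.70, 1.84, 1.25, 3.09, 4.27 and 11.9 TPM, the latter past the fold from day 24. FZD10 was at 0.27 TPM with DOX and then 1.16, 2.12, 1.03, 7.14, 9.68 and 5.0 TPM. FZD8 was at 4.27 TPM with DOX and then 6.71, 4.52, 2.94, 12.5, 16.4 and 16.9 TPM, and FZD6 at 4.85 TPM with DOX and then 10.9, 12.1, 11.1, 12.3, 25.8 and 20.1 TPM, both past the fold on the last 2 days. Each of these 5 receptors was higher on day 28 than with DOX. FZD5 was past the fold on days 8 and 28 with a dip between, at 8.30 TPM with DOX and then 27.9, 20.3, 26.5, 4.72, 10.7 and 58.1 TPM. For this gene the DOX sample was below every retaining sample, with WT H1 at 25.75 and 24.57 TPM. The FZD5 values of days 8 to 16 were thus near those of WT H1. FZD7 was past the fold on no day.

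The secreted inhibitors changed in both directions over the course. SFRP2 was at 685 TPM with DOX and then 255, 515, 350.2, 139, 10.6 and 5.98 TPM, and SFRP1 at 180.3 TPM with DOX and then 364, 103, 21.0, 24.6, 49.7 and 71.2 TPM, so SFRP1 reached its minimum on day 16, before SFRP2 had fallen by a fold of 3. DKK1 was at 0.48 TPM with DOX and then 0, 0.66, 5.77, 20.8, 211 and 104 TPM, and DKK2 at 0.06 TPM with DOX and then 0.26, 0, 0.07, 0.31, 7.65 and 15.2 TPM. Both dickkopfs were at their highest on days 24 and 28, when the summed hESC markers were at 306 and 346 TPM. DKK4 was at 0 TPM with DOX and then 0, 0.28, 4.35, 4.50, 0.66 and 7.37 TPM, and DKK3 passed the fold only on day 28, at 96.0 TPM against 26.6 TPM with DOX.

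Of the R-spondins, RSPO3 was past the fold from day 20 and RSPO2 on days 24 and 28. RSPO3 was at 0.08 TPM with DOX and then 0.24, 1.12, 0.48, 24.1, 133 and 249.8 TPM. RSPO2 was at 0.64 TPM with DOX and then 1.42, 0.45, 0.21, 0.87, 105 and 8.26 TPM, so that its day 24 value stands next to the SUZ12-/- samples and its day 28 value between the 2 of EZH2-/-/EZH1-/- H1 cells. RSPO4 was past the fold on no day, at 10.3 to 22.7 TPM. The genes past the fold on 1 day at most were WNT2B, WNT10B, DKK3 and WIF1 on 1 day, and WNT7A, WNT7B, WNT9A, WNT9B, WNT10A, FZD2, FZD3, FZD7, FZD9, SFRP4, SFRP5, RSPO1 and RSPO4 on none. Markers moved with these changes. Between days 16 and 20 the number of genes past a rise of 3-fold went from 6 to 14. The summed hESC markers went from 4215 to 2137 TPM, with SOX2 from 94.4 to 2.48 TPM and LIN28A from 580 to 512 TPM. Endoderm markers went from 85.4 to 375 TPM and trophoblast or amnion markers from 11.52 to 102 TPM. Mesoderm markers went from 619.9 to 967 TPM and neural markers from 135 to 156 TPM. Smooth muscle or fibroblast markers were at 204 and 637 TPM on these days, 6655 on day 24 and 8752 on day 28, beside 419.9 TPM with DOX. The part of these cell types in the changes was not tested.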

How the data were processed

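RNA was read from 19 samples of H1 cells prepared with the TruSeq kit. The authors aligned reads to an mRNA reference on GRCh38 with Bowtie2, quantified genes with RSEM and deposited TPM for 33382 genes in each sample. Depth is unknown, so no counting interval is given and precision rests on the 2 samples per line. The sums of TPM per sample ran from 999999.2 to 1000001.0. Genes were joined by Ensembl identifier. A count model had been planned in case counts were deposited, and since the values are TPM, limma 3.58.1 (R 4.3.3; lmFit, contrasts.fit, eBayes with trend and robust options) on log2(TPM + 1) was used, with the study's thresholds of an adjusted p of 0.01 and a fold of 3. The model held a mean for each of 6 lines and had 6 residual degrees of freedom. The script was tested on simulated data. Values are given for each gene of the set called in a PRC2-null line or in their average, or past the fold on 2 or more days. Of the other pathway genes, at most the 2 largest rises and 2 largest falls per list called in the average are named, with ROR2 added beside ROR1. The genes described and all lists were chosen with earlier results of these data known, so they are no independent evidence. Promoters are RefSeq entries on GRCh38.p14 and coordinates are GENCODE release 44 on GRCh38. Alternatives changed the pseudocount (0.1), the filter, the scaling, the thresholds, the limma options, the replicate block, the samples fitted and the reference day. Python 3.11.15 with pandas 2.3.3, numpy 2.4.6 and matplotlib 3.10.9 was used.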

Additional observations from a re-analysis of the deposited data

Results flagged for a closer look

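Of the genes of the set, 7 differed between PRC2-null lines in a limma test of the difference itself, on the log2(TPM + 1) scale with Benjamini-Hochberg adjustment. Lower in EED-/- than in SUZ12-/- H1 cells were RSPO2 (-5.04, adjusted p = 5.46e-05), SFRP5 (-3.05), SFRP2 (-2.15) and FRZB (-2.08), in 2 of 2 samples each. Higher in EED-/- H1 cells were DKK3 (2.17) and WNT9A (1.92), again in 2 of 2 samples. Between SUZ12-/- and EZH2-/-/EZH1-/- H1 cells, RSPO2 (3.24) and FRZB (1.91) were higher and DKK1 (-1.73) was lower in the former. The 2 SUZ12-/- samples, closer to each other than any other pair, take part in all of these comparisons. Averaging them into 1 left 3 genes in the first comparison (SFRP2, DKK3 and RSPO2) and 0 in the second.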

How the results depend on the processing

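Precision rests on 2 samples per line, and days after DOX withdrawal have 1. Of 200 counts under alternative settings, 161 stayed within 1.5 times the reported count, and of 782 values of single called genes 0 changed direction and 27 lost the call. The FZD2 call in EZH1-/- H1 cells became 0 with a pseudocount of 0.1, without the filter, with median ratio scaling, without trend and robust options, with the replicate block and with the SUZ12-/- samples averaged. Replicate numbers did not pair the samples (correlation of deviations between lines -0.121 to 0.218, median 0.0065 over 15 pairs), and the block changed no other count by over 1.5 times, leaving 23, 20 and 22 genes up in EED-/-, SUZ12-/- and EZH2-/-/EZH1-/- H1 cells. Requiring a TPM of 1 in all 12 samples, which keeps 16 of the 45 genes, left 5, 4 and 4 up in these lines, 5 in the average and 5 against the retaining lines, 10 other pathway genes up and 1 difference between SUZ12-/- and EZH2-/-/EZH1-/- H1 cells. The share of all genes called under that filter was not computed, so these counts cannot be set against a background. The filter drops genes such as WNT2 and DKK1. An adjusted p of 0.05 with no fold cutoff gave 4 down in EED-/- H1 cells and 5 down in EZH2-/-/EZH1-/- H1 cells, in the average and against the retaining lines. It also gave 16, 1 and 11 differences for EED-/- against SUZ12-/-, EED-/- against EZH2-/-/EZH1-/- and SUZ12-/- against EZH2-/-/EZH1-/- H1 cells, and 40 other pathway genes up and 11 down. Fitting only the 4 samples of EZH2-/-/EZH1-/- and WT H1 left 1 down. A pseudocount of 0.1 left 1 difference between SUZ12-/- and EZH2-/-/EZH1-/- H1 cells, and averaging the SUZ12-/- samples, chosen after seeing the data, left 3 and 0 in the comparisons with them. Median ratio scaling gave 5 genes without overlap that were lower in PRC2-null samples.

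In the DOX series a pseudocount of 0.1 gave 11, 11 and 12 rises on days 8, 12 and 16 and 2 falls on day 8, and a fold of 2 gave 9 and 10 rises on days 8 and 12, 2 falls on day 8 and 2 on day 28. With day 8 as reference, day 12 had 2 rises and 2 falls, day 16 had 3 falls and day 28 had 2. Leaving out each of the 12 samples in turn, the lone sample of a line being assumed to vary like the others, gave 22 to 23 genes up and 1 to 2 down in EED-/-, 17 to 20 and 2 to 3 in SUZ12-/-, 16 to 22 and 1 to 3 in EZH2-/-/EZH1-/- H1 cells, 20 to 23 and 1 to 2 in the average, and 21 to 23 and 1 against the retaining lines. EZH1-/- H1 cells had 0 up and 0 to 1 down, and EZH2-/- H1 cells 0. Differences between lines ran from 3 to 8 (EED-/- and SUZ12-/-; 3 without either SUZ12-/- sample), 0 to 1 (EED-/- and EZH2-/-/EZH1-/-; 1 without EED-/- replicate 2 or EZH2-/-/EZH1-/- replicate 1) and 0 to 5 (SUZ12-/- and EZH2-/-/EZH1-/-; 0 without either SUZ12-/- sample, 5 without EZH2-/-/EZH1-/- replicate 1). Other pathway genes were up in 18 to 23 cases and down in 1 to 3, and genes without overlap numbered 28 to 30 up and 1 to 3 down, the latter 3 without replicate 2 and 2 without replicate 1 of EZH2-/- or EED-/- H1 cells, and 2 without SUZ12-/- replicate 1. The lower counts of falls came without WT H1 replicate 2 in the average and in EZH2-/-/EZH1-/- H1 cells, without either WT H1 sample or EED-/- replicate 1 in EED-/- H1 cells, and without WT H1 or EZH2-/-/EZH1-/- replicate 2 among the other pathway genes. The FZD2 call was lost without any 1 sample of WT H1, EZH1-/-, EED-/- or SUZ12-/- H1 cells (adjusted p of 0.0235 to 0.143 by limma).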
